A study of Homo sapiens with 9 samples.

Results

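The peaks described here are the KAS peaks on the arms of chromosome 5, taken as all KAS peaks of that chromosome whose summit lies outside 46500000 to 50100000, the stretch around the centromere. There were 903 of them among 34247 KAS peaks in all. They were chosen by summit position alone. HL-60 is an established human line from an acute promyelocytic leukaemia, used here in differentiated form (dHL60, with no agent named) as a stand-in for neutrophils. In every group the cells were induced to form neutrophil extracellular traps (NETs), DNA that neutrophils release together with granule proteins. For the 1 KAS library, the culture received 5 mM N3-kethoxal for 10 min after 4 h of induction, the NETs were then isolated, and the label neither restates the dose of the inducer nor names thrombin. In 4 thrombin pulldown libraries, used here for 1 comparison, 500 nM PMA (phorbol myristate acetate) for 4 h was followed by 1 µM biotinylated alpha thrombin for 1 h and by formaldehyde. The 4 inputs of the pulldowns, and the input saved for KAS, were not analysed here. Positions are on GRCh38.

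KAS-seq captures single-stranded DNA, because N3-kethoxal reacts with guanines that are not paired. In living cells such DNA is known from open transcription bubbles, paused polymerase at gene starts, enhancers and some non-B structures. Here the captured DNA came from NETs and not from intact nuclei. Chromosome 5 carries genes known in myeloid disease, since loss of part of its long arm is a recurrent lesion of myelodysplastic syndromes and acute myeloid leukaemia. In HL-60 the long arm from 50.1 to 140 Mb has been reported as deleted on 1 copy, and it is called the deleted stretch below. Copy number was not measured in these data, so fewer copies of the DNA and less single-stranded DNA per copy cannot be told apart in any comparison with this stretch. The stretches were chosen with the peak counts known, so densities are a description with no test.

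A few KAS peaks lay at gene starts, and 4 of these starts show what the captured DNA looked like at promoters of each stretch. In each line the window runs 5′ to 3′ on the gene's strand, from 250 bases before the start to 50 after it (RefSeq, GRCh38.p14), and capitals mark the bases inside the KAS peak. Windows were at hand for 338 of the 385 protein-coding genes of the deleted stretch, and among these TENT2, for a poly(A) polymerase, is the only one with a summit inside its window (chr5:79612191-79612490, plus strand). TPPP, for a tubulin polymerisation protein, lies on the short arm (chr5:693303-693602, minus strand), and its window holds a whole peak. UNC5A, for a netrin receptor (chr5:176810309-176810608, plus strand), and UBTD2, for a ubiquitin domain protein (chr5:172283715-172284014, minus strand), lie on the distal long arm and were among the genes with most peaks for their length.
TENT2: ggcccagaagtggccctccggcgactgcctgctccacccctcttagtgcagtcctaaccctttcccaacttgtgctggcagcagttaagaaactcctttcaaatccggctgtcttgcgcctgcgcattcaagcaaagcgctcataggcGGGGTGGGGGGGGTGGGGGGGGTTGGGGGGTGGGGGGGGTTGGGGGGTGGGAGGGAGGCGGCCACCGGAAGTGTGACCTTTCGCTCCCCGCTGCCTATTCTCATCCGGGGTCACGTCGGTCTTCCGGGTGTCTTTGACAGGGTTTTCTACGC
TPPP: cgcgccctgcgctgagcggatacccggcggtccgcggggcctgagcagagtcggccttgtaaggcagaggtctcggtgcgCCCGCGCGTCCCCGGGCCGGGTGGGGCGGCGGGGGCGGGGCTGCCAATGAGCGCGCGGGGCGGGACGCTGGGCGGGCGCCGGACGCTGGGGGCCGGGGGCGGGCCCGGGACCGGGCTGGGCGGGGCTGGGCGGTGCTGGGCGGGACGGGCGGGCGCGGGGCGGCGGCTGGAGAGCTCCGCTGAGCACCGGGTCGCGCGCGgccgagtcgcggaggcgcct
UNC5A: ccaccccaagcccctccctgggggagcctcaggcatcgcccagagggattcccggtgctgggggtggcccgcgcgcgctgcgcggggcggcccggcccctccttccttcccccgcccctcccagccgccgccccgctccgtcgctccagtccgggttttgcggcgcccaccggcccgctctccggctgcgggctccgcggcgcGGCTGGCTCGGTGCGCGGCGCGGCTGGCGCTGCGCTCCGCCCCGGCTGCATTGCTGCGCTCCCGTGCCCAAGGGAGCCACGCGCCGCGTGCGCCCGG
UBTD2: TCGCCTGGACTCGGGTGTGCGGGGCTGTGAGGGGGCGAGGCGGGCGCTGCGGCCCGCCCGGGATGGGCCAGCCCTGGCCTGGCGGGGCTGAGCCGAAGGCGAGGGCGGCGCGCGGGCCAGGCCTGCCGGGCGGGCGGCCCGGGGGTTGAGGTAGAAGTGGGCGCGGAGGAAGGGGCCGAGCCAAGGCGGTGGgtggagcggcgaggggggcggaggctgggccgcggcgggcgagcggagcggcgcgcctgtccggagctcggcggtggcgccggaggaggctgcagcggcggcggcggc

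The capitals in TENT2 open with runs of guanine up to 8 long. A run of 8 or more G or C was found in 2.26% of the 22199 promoter windows of protein-coding genes in the table. G and C made up 63.3% of the TENT2 window, 83.0% of the TPPP window, 80.7% of the UNC5A window and 82.0% of the UBTD2 window, against a median of 61.3% over the 1088 windows of the chromosome 5 arms. The 9 windows of 8 genes that shared a base with an arm peak had from 63.3% to 83.0% G and C, with a median of 80.7%, and from 16 to 51 CpG dinucleotides, against a median of 21 on the arms. TPPP, IRX4, UBE2QL1, TENT2, ERAP1, UBTD2, UNC5A and DBN1 are these 8 genes, 3 of 138 on the short arm, 2 of 338 in the deleted stretch and 3 of 315 on the distal long arm. The same share was not counted on the other autosomes, so these counts have no background beside them. The unit ATTCC named in the series title was searched on both strands, which adds GGAAT. A pair of units in a row was found in 0 of the 9 windows, in 0 of the 1088 windows of the arms and in 0.0450% of all windows. A single unit was in 22.2% of the 9 windows and 34.5% of those on the arms. The G and C content was looked at after the windows were seen.

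KAS peaks were thin in the deleted stretch and frequent on both sides of it. The short arm, of 46.5 Mb, held 349 peaks, or 7.51 per Mb (exact 95% Poisson interval 6.74 to 8.34). In the deleted stretch, of 89.9 Mb, there were 90 peaks, or 1.00 per Mb (0.805 to 1.23). The long arm from 140 Mb to the end, 41.5 Mb, held 464 peaks, or 11.2 per Mb (10.2 to 12.3). The deleted stretch thus made up 50.5% of the length of the arms and held 9.97% of their peaks. Its density was exceeded 7.5 times on the short arm (exact 95% interval of the ratio 5.93 to 9.56) and 11.2 times on the distal long arm (8.90 to 14.2). These intervals cover counting error only, since 1 library was made and read depth is unknown.

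The other 21 autosomes were counted whole, with their centromeric peaks and unsequenced stretches, whereas the centromeric stretch of chromosome 5 is left out, so the regions are unlike. Their density was 12.2 per Mb (12 to 12.3), which is 12.2 times that of the deleted stretch (9.89 to 15.1) and 1.62 times that of the short arm (1.46 to 1.81). Counting all peaks, the distal long arm was at 0.919 times the other autosomes (0.837 to 1.01). Among high peaks it was further below them, as given below. With its centromeric peaks included, chromosome 5 ranked last of the 22 autosomes, at 5.58 peaks per Mb, after chromosome 13 at 6.75 and chromosome 4 at 7.92. A window as long as the deleted stretch was also moved in steps of 1 Mb along the 15 other autosomes long enough to hold it. The emptiest of these 969 windows lay on chromosome 4 and held 449 peaks, or 4.99 per Mb, and the next, on chromosome 6, held 490. Shorter thin stretches did occur on other autosomes. Of those given here, the one on chromosome 9 was thinner in each step than the deleted stretch as a whole. On chromosome 9 the 4 steps of 5 Mb from 10 to 30 Mb held 3, 4, 0 and 1 peaks, with 7, 17, 26 and 13 protein-coding genes. On chromosome 10 the 6 steps from 0 to 30 Mb had densities from 0.800 to 3.40 per Mb, and on chromosome 17 both steps from 10 to 20 Mb held 8 peaks.

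**Figure D1:**
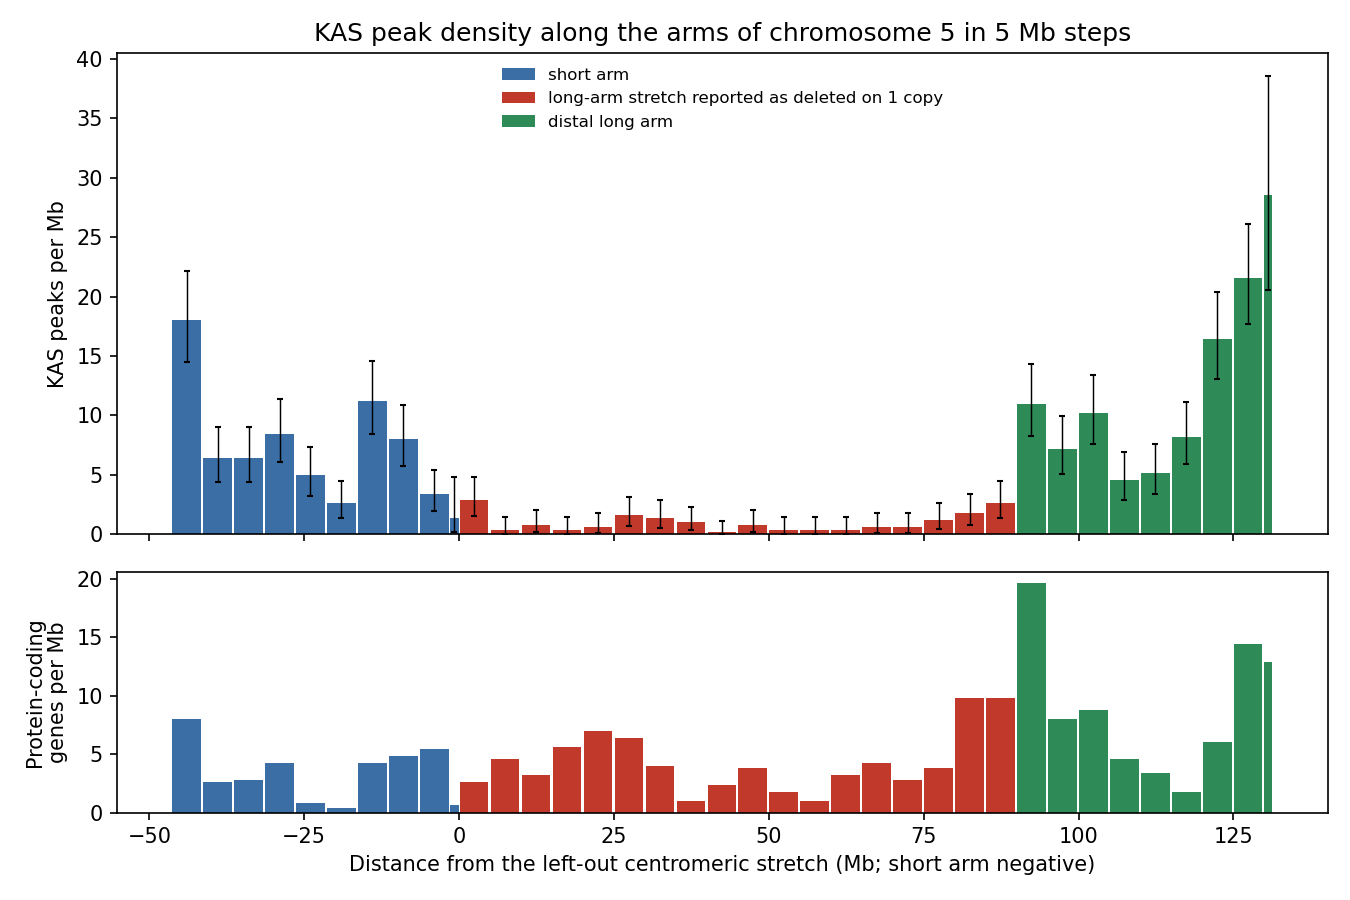
The upper panel shows KAS peaks per Mb in steps of 5 Mb along both arms of chromosome 5, with exact 95% Poisson intervals as bars, and the lower panel protein-coding genes per Mb in the same steps, both against the distance from the left-out centromeric stretch. No step of the deleted stretch passes 2.86 peaks per Mb, while steps of the distal long arm run from 4.6 to 28.5.

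In steps of 5 Mb, the 18 steps of the deleted stretch ran from 0.200 to 2.86 peaks per Mb, with a median of 0.700. The lowest was the step from 90 to 95 Mb, which held 1 peak and 12 protein-coding genes. Its highest steps were its ends, 14 peaks from 50.1 to 55 Mb and 13 peaks from 135 to 140 Mb. The 10 steps of the short arm, of which the last is 1.50 Mb long, ran from 1.33 to 18.0 per Mb with a median of 6.40. The 9 steps of the distal long arm, of which the last is 1.47 Mb long, ran from 4.6 to 28.5 with a median of 10.2. Steps of the deleted stretch did not overlap with those of the distal long arm, and they overlapped with the lowest of the short arm.

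Both chromosome ends were dense. The outermost 5 Mb of the short arm held 90 peaks, 18.0 per Mb, against 6.40 in each of the following pair of steps. On the long arm the density was 16.4 per Mb from 170 to 175 Mb, 21.6 from 175 to 180 Mb and 28.5 from there to the end. On the short arm the next fullest steps were from 30 to 35 Mb, with 56 peaks, from 15 to 20 Mb, with 42, and from 35 to 40 Mb, with 40. The step from 25 to 30 Mb, with 2 protein-coding genes, held 13 peaks. The fullest single Mb of the distal long arm was from 177 to 178 Mb with 36 peaks, that of the short arm from 0 to 1 Mb with 27 and that of the deleted stretch from 134 to 135 Mb with 6.

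Density differed across the distal boundary of 140 Mb, a position taken as given, and the place of the change was not searched for. In the last 5 Mb before it there were 13 peaks, 2.60 per Mb (1.38 to 4.45), and in the first 5 Mb after it 55 peaks, 11 per Mb (8.29 to 14.3). Genes also became denser there, from 49 to 98 protein-coding genes, many of them the overlapping members of the protocadherin clusters. Counted per gene, peaks went from 0.265 to 0.561 across the boundary. With only 2 Mb on each side, they went from 0.300 to 0.409 per gene. With the boundary put 5 Mb further out, the short arm was 4.91 times and the distal long arm 7.34 times as dense as the deleted stretch. At the inner edge, the last peak kept on the short arm had a fold of 5.18 at 45085049 to 45085248 and the first peak left out one of 5.11 at 47062581 to 47062788. The last peak left out had a fold of 4.81 at 50019894 to 50020107, and the first kept on the long arm one of 5.06 at 50351475 to 50351727.

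Empty stretches were long in the deleted stretch. Neighbouring summits there were a median of 468 kb apart, against 47.3 kb on the short arm, 32 kb on the distal long arm and 27.1 kb on the other autosomes. The longest gap ran from 56051754 to 61260847, or 5.21 Mb, and held 15 whole protein-coding genes. A gap of 4.45 Mb, from 69205704 to 73657092, held 40 such genes. Of the 90 steps of 1 Mb in the deleted stretch, 40 had no peak (44.4%), against 5 of 47 on the short arm, 1 of 42 on the distal long arm and 6.60% on the other autosomes. Peaks less than 10 kb apart made up 4.49% of neighbours in the deleted stretch, 20.1% on the short arm and 21.8% on the distal long arm. A lower density by itself gives longer gaps, more empty steps and fewer close neighbours. These values therefore restate the density in part, and clustering beyond it was not tested.

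**Figure D2:**
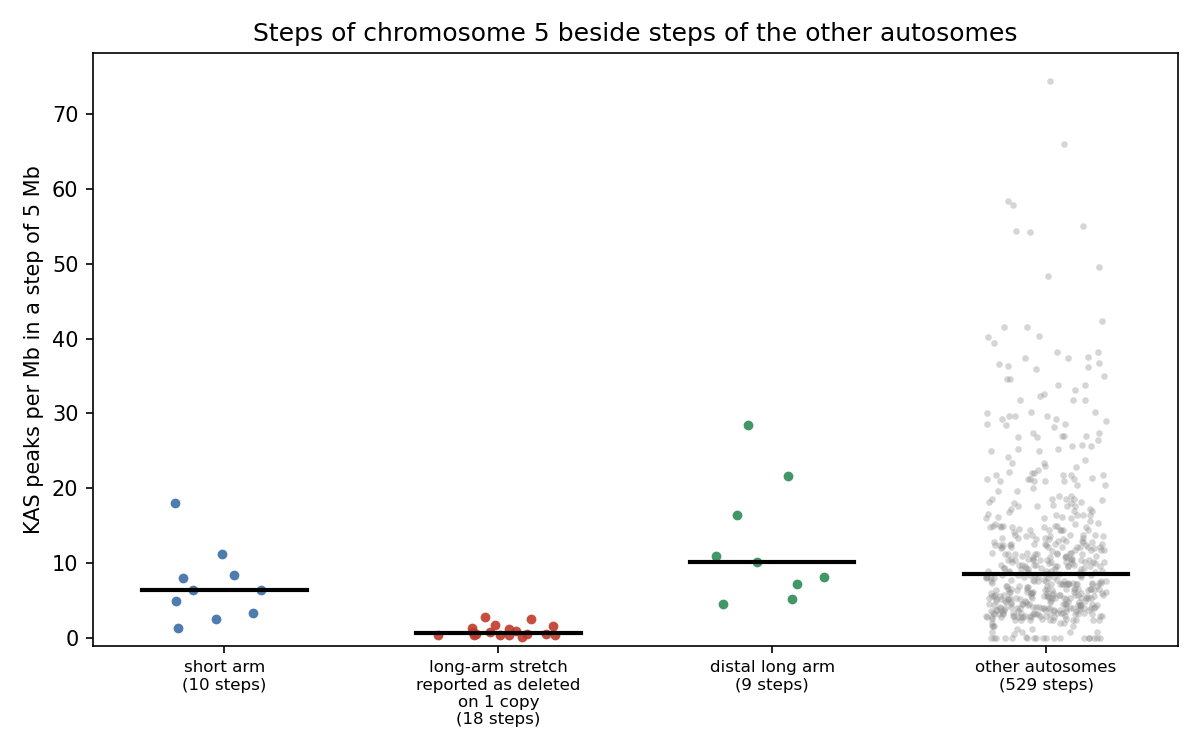
Each point is the density of KAS peaks in a step of 5 Mb (some steps at the ends of stretches are shorter), for the 3 stretches of chromosome 5 and for 529 steps of the other autosomes, and lines are medians. All 18 steps of the deleted stretch lie below 2.96 peaks per Mb, the 10th percentile of the other autosomes.

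The density of the deleted stretch was low in gene-poor and gene-rich steps. All of its 18 steps were below the 10th percentile of steps on the other autosomes, 2.96 peaks per Mb, as were 2 of 10 steps of the short arm and 0 of 9 of the distal long arm. At most 1 peak per Mb was found in 12 of its 18 steps and in 4.54% of steps of the other autosomes. Among steps with 0 to 15 protein-coding genes the median was 0.500 peaks per Mb in the deleted stretch (6 steps), 5.70 on the short arm (4 steps) and 4.4 on the other autosomes (149 steps). With 16 to 30 genes it was 0.700 (8 steps), 8.20 (4 steps) and 8.20 (192 steps). With 31 or more it was 1.70 in the deleted stretch (4 steps), 10.6 on the distal long arm (4 steps) and 14.9 on the other autosomes (188 steps). In the classes not yet given, the distal long arm had 8.20 with 0 to 15 genes (1 step). It had 5.20 with 16 to 30 genes (3 steps), and the short arm had 18.0 with 31 or more (1 step).

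The deleted stretch held 4.28 protein-coding genes per Mb, the short arm 3.59 and the distal long arm 8.49. Per protein-coding gene there were 0.234 peaks in the deleted stretch, 2.09 on the short arm and 1.32 on the distal long arm, so that on this scale the distal long arm was 5.64 times as dense as the deleted stretch and the short arm 8.94 times. Inside protein-coding genes the density was 1.06 peaks per Mb in the deleted stretch (0.745 to 1.46), 9.51 on the short arm (8.04 to 11.2) and 11.8 on the distal long arm (10.3 to 13.4). Outside them it was 0.964 (0.722 to 1.26), 6.49 (5.62 to 7.45) and 10.7 (9.35 to 12.1). The short arm thus had 1.47 times as many peaks per Mb inside as outside genes (1.18 to 1.82), while this ratio was 1.10 in the deleted stretch (0.701 to 1.70), 1.11 on the distal long arm (0.918 to 1.33) and 1.14 on the other autosomes.

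Peaks lay inside and outside genes in every stretch. Of the summits, 41.1% in the deleted stretch (30.8 to 52.0), 42.7% on the short arm and 48.7% on the distal long arm lay in a protein-coding gene, and 45.6%, 44.7% and 41.2% lay in no gene at all. On the other autosomes these shares were 45.6% and 44.7%. Gene starts were rarely marked: 2 of 90, 5 of 349 and 11 of 464 summits lay within 1 kb of the start of a protein-coding gene, against 1.99% on the 20 other autosomes for which starts were at hand. Starts were at hand for 790 of the 904 protein-coding genes of the arms, so these counts are lower limits. Of 379 summits in arm genes of known strand, 20.3% lay in the 20% of the gene nearest its start and 17.9% in the 20% nearest its end, against 22.9% and 17.7% on those autosomes. Exons and introns were not told apart.

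The peaks that were called in the deleted stretch were near those of the other stretches in median height and had a lower median width. Fold, the authors' enrichment over the caller's background, had a median of 5.62 in the deleted stretch (quartiles 4.76 and 6.74), 5.46 on the short arm (4.66 and 6.21) and 5.43 on the distal long arm (4.68 and 6.18). A fold of at least 8 was reached by 9 of 90 peaks in the deleted stretch (10%, 4.68 to 18.1). On the short arm 6.02% reached it (3.76 to 9.05), and on the distal long arm 4.31% (2.65 to 6.58). The pileup at the summit, a read height, had medians of 10, 10 and 9. Width had a median of 216 bases in the deleted stretch, 250 on the short arm and 251 on the distal long arm, and 1 of 90 peaks there was at least 500 bases wide, against 35 of 349 and 24 of 464. A peak enters the list only past the caller's threshold, so these values describe the peaks that passed and not the stretch.

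The shortfall was seen among high peaks too. Against the short arm its size changed little up to a pileup of 15. Against the distal long arm it was smaller among higher peaks than among all peaks. Among peaks with a pileup of at least 10, the short arm was 7.46 times and the distal long arm 9.95 times as dense as the deleted stretch. At a pileup of at least 15 there were 46, 12 and 24 peaks on the short arm, in the deleted stretch and on the distal long arm, and the ratios were 7.41 (3.86 to 15.4) and 4.34 (2.09 to 9.51). At 20 or more there were 25, 4 and 10 peaks, and the ratios were 12.1 (4.17 to 47.8) and 5.42 (1.56 to 23.7). A pileup of at least 20 was reached by 7.16% of short-arm peaks (4.69 to 10.4), 4.44% of those in the deleted stretch (1.22 to 11), 2.16% of those on the distal long arm (1.04 to 3.93) and 8.08% of those on the other autosomes. At a pileup of at least 15, the short arm had 0.989 peaks per Mb and the distal long arm 0.579, against 1.78 on the other autosomes. At 20 or more these densities were 0.538, 0.241 and 0.983.

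**Figure D3:**
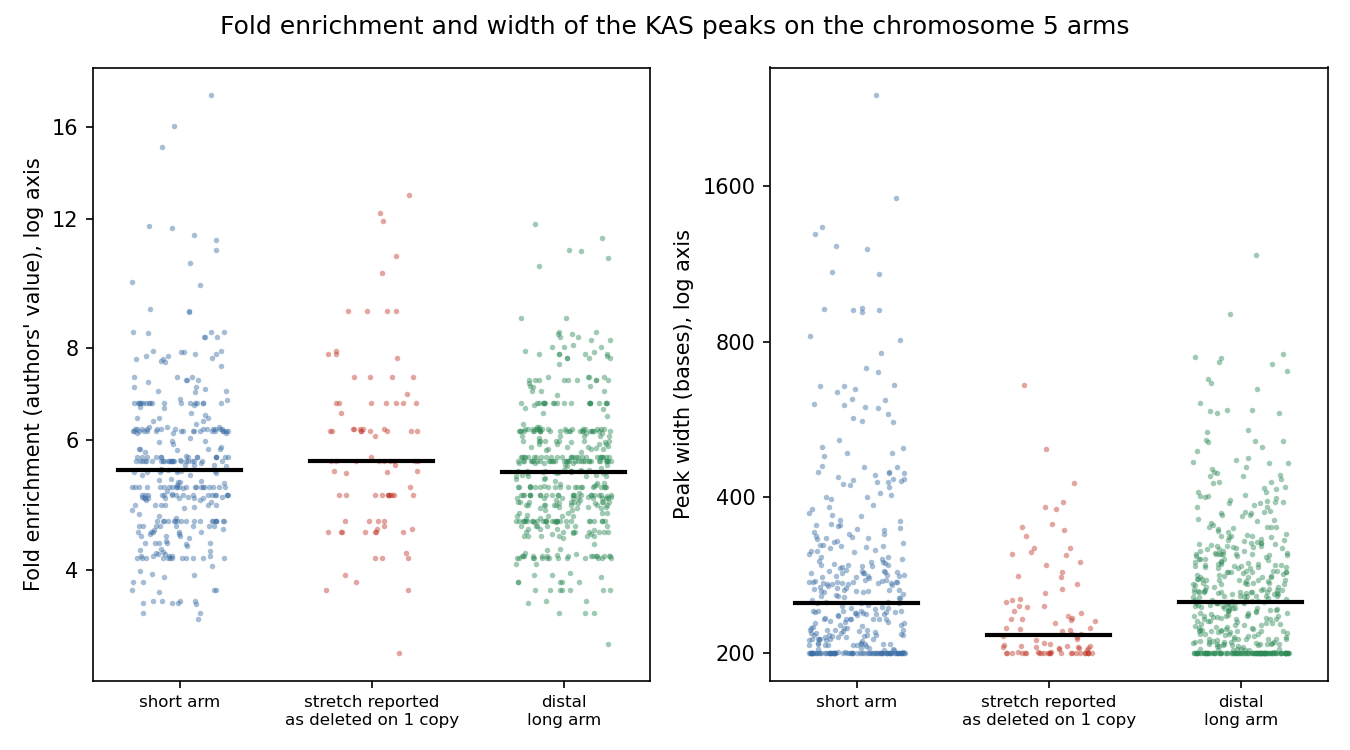
Each point is a KAS peak of the chromosome 5 arms, with the authors' fold enrichment on the left and the peak width on the right, both on log axes, and lines are medians. The 90 peaks of the deleted stretch have a median fold of 5.62, near the 5.46 and 5.43 of the other stretches, and a median width of 216 bases against 250 and 251.

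The short arm, the deleted stretch and the distal long arm held 38.6%, 9.97% and 51.4% of the arm peaks. Of the 10 peaks of highest fold, 6 lay on the short arm, 3 in the deleted stretch and 1 on the distal long arm. The highest, at 1272561 to 1273783, was within TERT, the gene of the telomerase catalytic subunit, with a fold of 17.7, a pileup of 66 and a width of 1223 bases. The second, at 6360893 to 6361143, lay in no gene, 10.8 kb from MED10, for a Mediator subunit, with a fold of 16.1. The third, at 18034138 to 18034470, had a fold of 15.0 and its nearest protein-coding gene, H3Y1, was 378 kb away. Of the highest peaks, then, the first was in a gene and the following pair was not.

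The 3 strongest peaks of the deleted stretch took ranks 4 to 6. A peak at 132683647 to 132683933 had a fold of 12.9 and lay in no gene, 1.11 kb from IL4, for the T helper cytokine interleukin 4. A peak at 123089081 to 123089312 had a fold of 12.2 and touched PRDM6, for a chromatin regulator of smooth muscle, and PRDM6-AS1, with its summit 0.0460 kb outside PRDM6, a gene with no promoter window at hand and so absent from the counts of starts. A peak at 83383565 to 83383818 had a fold of 11.9 and lay 9.20 kb from XRCC4, a factor of DNA end joining. Rank 7, with 11.8, was in TENM2, at 167034349 to 167034626. Ranks 8 to 10 were on the short arm, 1.41 kb from the gene UBE2QL1 (11.7), far from genes at 8615191 to 8615590 (11.7) and in LINC02213 (11.4). The widest peak of the arms, of 2397 bases at 649002 to 651398, lay in CEP72, for a centrosomal protein, with a fold of 6.99. Those next in width, of 1520 and 1331 bases, lay at 3322826 to 3324345 and 1929227 to 1930557, also on the short arm, with folds of 11.2 and 9.84.

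Among all 19126 protein-coding genes of the autosomes, 37.2% held at least 1 KAS peak, and 37.8% did on the autosomes other than chromosome 5. In the deleted stretch 33 of 385 genes did (8.57%, exact 95% interval 5.97 to 11.8), against 67 of 167 on the short arm (40.1%, 32.6 to 48.0) and 123 of 352 on the distal long arm (34.9%, 30.0 to 40.2). The short and distal stretches were thus near the background and the deleted stretch was below it. The lower share of the deleted stretch was seen in each length class. In genes of 100 kb or more, 17.8% of 107 held a peak in the deleted stretch, 63.4% of 41 on the short arm, 66.2% of 74 on the distal long arm and 75% on the other autosomes. Among genes of 20 to 100 kb the shares were 8.55%, 45.5%, 45.8% and 48.8%. Of the 126 shorter genes in the deleted stretch, 1 held a peak (0.794%), against 12.2%, 12% and 14.8%. On the distal long arm, the overlapping genes PCDHA1 to PCDHA13, all of 100 kb or more, shared 1 peak with PCDHAC1 and PCDHAC2. Each was counted as a gene with a peak, and the intervals take genes as independent, which overlapping genes are not.

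**Figure D4:**
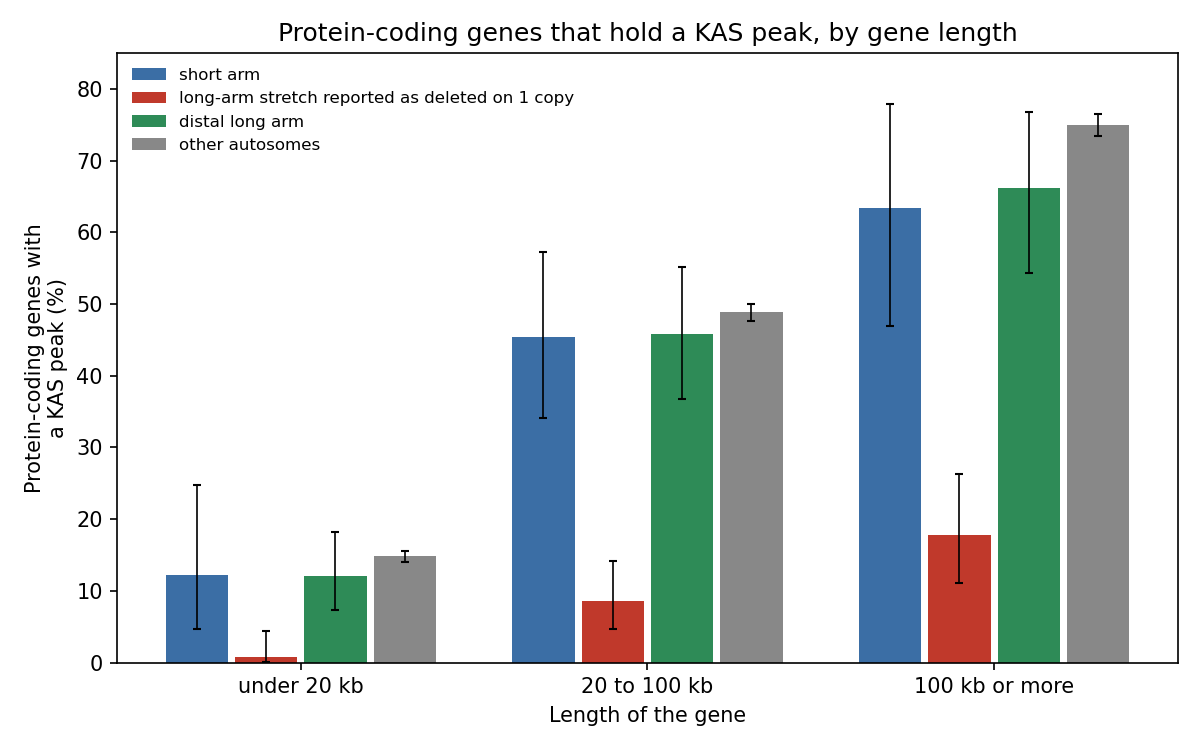
Bars give the percent of protein-coding genes that share at least 1 base with a KAS peak, by length of the gene, for the 3 stretches of chromosome 5 and the other autosomes, with exact 95% binomial intervals. In each length class the deleted stretch is lowest, with 0.794%, 8.55% and 17.8%. Overlapping protocadherin genes of the distal long arm that share 1 peak are each counted.

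The genes with most peaks lay on the short arm and the distal long arm. PDZD2, for a protein with PDZ domains (short arm, 31639131 to 32110932), held 16 summits in 472 kb, with folds from 3.62 to 7.90 and the first and last at 31779522 and 32086896. TENM2, for a teneurin adhesion protein of neurons, held 13 in 1285 kb, with folds from 4.59 to 11.8 and a median spacing of 90.2 kb. STK10, for a kinase of lymphocytes, held 9 in 146 kb, and NSD1, for a histone methyltransferase that is fused to NUP98 in some myeloid leukaemias, held 8 in 168 kb, 7 of them nearer its start than its end. WDR70, for a WD-repeat protein, also held 8, in 374 kb.

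UNC5A held 7 summits in 70.3 kb, or 9.95 per 100 kb, the most among genes with at least 3 summits. The first was the promoter peak shown above, with a fold of 4.14. A group of 3 lay between 176829341 and 176830475, with folds of 4.66, 4.66 and 8.80, and another of 3 between 176871062 and 176872382, with 8.37, 5.50 and 6.61. CDH12, for a cadherin, held 7 in 1103 kb. The genes AHRR, for the repressor of the aryl hydrocarbon receptor, MYO10, for a myosin of filopodia, COL23A1, for a collagen, SLIT3, for an axon guidance ligand, and CTNND2, for delta-catenin, held 6 each. ZNF346, for a zinc finger protein, CREBRF, for a regulator of CREB3, and LARP1, for an RNA-binding protein of translation, held 5 each. Of the 15 genes with most summits, 5 were also among the 10 with most per 100 kb, where UNC5A, ZNF346 (8.55) and ATP6V0E1, for a subunit of the proton pump (7.74), came first and PDZD2 ranked 22 of 48.

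**Figure D5:**
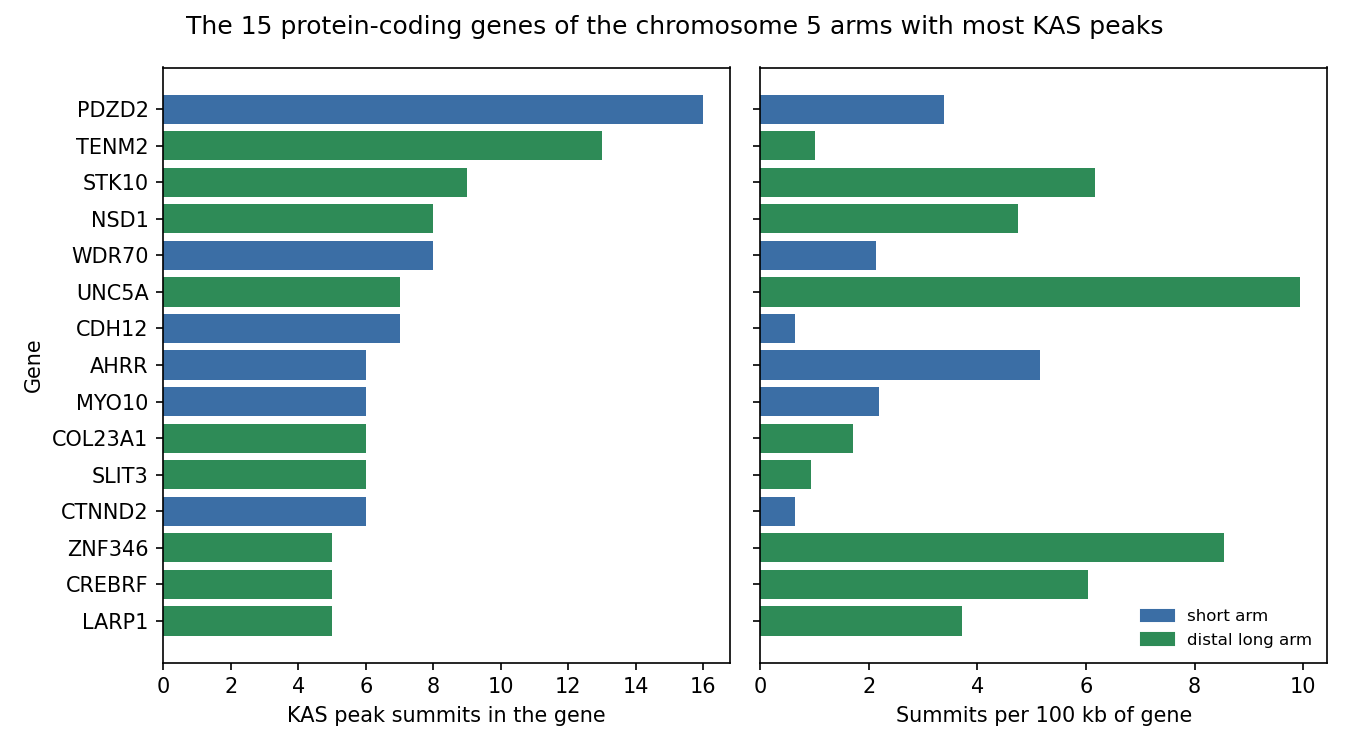
The left panel gives the number of KAS summits in each of the 15 protein-coding genes of the arms with most summits, and the right panel the same per 100 kb of gene, coloured by stretch. PDZD2 leads by number with 16 and UNC5A by length with 9.95 per 100 kb, and no gene of the deleted stretch is among them.

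STK10, UBTD2, ATP6V0E1 and CREBRF lay near one another, between 172042079 and 173139284, and UNC5A, ZNF346 and NSD1 between 176810559 and 177300213. The genes CDHR2 (5.61 per 100 kb), for a brush border protocadherin, SLC9A3 (5.56), for a sodium-proton exchanger, UBTD2 (5.37), ANXA6 (5.26), for an annexin, and AHRR (5.15) completed the 10 genes of highest density. CDHR2 held a peak with a fold of 10.6 and AHRR one of 10.4. Of these 10 genes, 8 lay on the distal long arm, and AHRR and SLC9A3 in the first Mb of the short arm. At AHRR the table also places the readthrough gene PDCD6-AHRR, so its 6 summits are counted for both. Among genes that are not protein-coding, the pseudogene GUSBP1, of the short arm, held 4 summits, with folds up to 10.9. GUSBP1 belongs to a family with near-identical copies, so its reads may be shared among them.

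No gene of the deleted stretch held more than 2 summits, whereas 18 of 167 genes of the short arm and 30 of 352 of the distal long arm held 3 or more. The genes with 2 were PCBD2, for a pterin dehydratase (folds 7.77 and 7.93), SEC24A, for a coat protein of vesicles (3.76 and 4.14), NDUFS4, for a subunit of respiratory complex I (5.44 and 7.30), TRPC7, for a cation channel (3.84 and 6.53), FBN2, for fibrillin 2 (5.62 and 6.21), ARL15, for a small GTPase (5.55 and 5.62), MCC, a gene named for colorectal cancer (4.66 and 6.18), and SV2C, for a synaptic vesicle protein (4.49 and 10.7). Both PCBD2 peaks lie in pseudogenes of mitochondrial origin inside it, MTND4P12 and MTND6P4, and whether their reads came from mitochondrial DNA was not tested. These are also 2 of the 6 peaks of the fullest Mb of the stretch. A further 23 genes held 1 summit. SNX24, for a sorting nexin, was the highest of these at 8.99.

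Gene lists are set beside the share of all genes of the same stretch, 8.57% in the deleted stretch, 40.1% on the short arm and 34.9% on the distal long arm, as a description only. Of 19 listed genes known from myeloid 5q deletions that lie there, 1 held a peak, MCC, and APC, EGR1, CTNNA1 and HSPA9 held none. Of the 9 listed genes that lie on the distal long arm, 5 did. These were DIAPH1, for a formin (4 peaks, folds 4.47 to 5.18), CSNK1A1, for casein kinase 1 alpha (3 peaks, 4.66 to 5.62), HBEGF, for a growth factor (5.18), NPM1, for nucleophosmin (4.49), and TNIP1, for an inhibitor of NF-kappaB signalling (4.17). None of 13 listed genes of the 5q31 region, cytokine genes and others, held a peak, IL3, CSF2, IL4, IL5 and IRF1 included. All of them lie in the deleted stretch.

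Of 35 haematopoietic and myeloid genes, 9 held a peak: 2 of 7 on the short arm, 2 of 15 in the deleted stretch and 5 of 13 on the distal long arm. ANXA6 held 3 (4.45 to 6.21), EBF1, for a B-cell factor, 2 (5.87 and 6.99), and DOCK2, for a guanine exchange factor of leukocyte migration, 2 (4.44 and 6.74). ERAP1, for a peptidase of antigen processing (6.74), and CAST, for calpastatin (6.18), were the pair in the deleted stretch. PTGER4, for a prostaglandin receptor (6.73), CARD6 (6.17), and CSF1R, the receptor of macrophage colony-stimulating factor (5.70), held 1 each. Of 7 genes for protease-activated receptors, coagulation and complement, C9, for a complement component (6.18), held a peak. The receptor genes F2R, F2RL1 and F2RL2, all in the deleted stretch, held none.

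Of 28 short-arm genes of general cell function, 16 held a peak (57.1%). The list was chosen with earlier results known, and on the short arm 45.5% of genes of 20 to 100 kb and 63.4% of longer ones held a peak. After WDR70 and MYO10 came TRIO, for a guanine exchange factor, with 4 peaks (4.75 to 6.74), NIPBL, for the cohesin loader, with 3 (4.14 to 6.31), and TERT, with 2 (4.71 and 17.7). DROSHA, for the nuclease of microRNA processing (5.06 and 6.74), TARS1, for a tRNA synthetase (4.33 and 6.73), and GOLPH3, a Golgi protein (4.49 and 6.18), also held 2. Of 30 adhesion and neural genes, most of them long, 14 held a peak: 6 of 11 on the short arm, 2 of 9 in the deleted stretch and 6 of 10 on the distal long arm. TENM2, CDH12, SLIT3 and CTNND2 led, followed by SGCD, for a sarcoglycan, CDH18 and GRIA1, for a glutamate receptor, with 3 each, and ADAMTS16 with 2, the higher at 9.06. In the deleted stretch FBN2 and EDIL3 (7.30) did.

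A list of 20 ribosomal, splicing and translation genes also took in CANX and SQSTM1, which are none of these. Of the 20, 6 held a peak, 1 of 2 on the short arm, 1 of 7 in the deleted stretch and 4 of 11 on the distal long arm. LARP1 led with 5 peaks (4.66 to 6.18), followed by PAIP1 with 2 (5.55 and 6.18), and CANX (6.18), RACK1 (4.90), NPM1 and PAIP2 (4.49) held 1 each. Of 53 clustered protocadherin genes, all on the distal long arm, 16 held a peak. The genes PCDHA1 to PCDHA13, PCDHAC1 and PCDHAC2 overlap one another, and 15 of the 16 shared 1 peak with a fold of 5.01, while PCDHB9 held its own (5.62).

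None of the 903 KAS peaks of the arms overlapped a thrombin pulldown peak, in any of the 4 lists (0%, exact 95% interval up to 0.408%). The rule that leaves out the centromeric stretch largely sets this 0, since nearly all pulldown peaks of the chromosome lay there. On the other autosomes, counted with their centromeric peaks, 560 of 32764 KAS peaks overlapped a pulldown peak of any list (1.71%, 1.57 to 1.86). The pulldown lists held 41, 24, 27 and 32 peaks on chromosome 5 in replicates 1 to 4, a mean of 31 ± 7.44 (SD, n = 4), of which 2, 3, 0 and 0 lay outside the centromeric stretch. On the arms, 4 of these 5 lay just past its outer edge, between 50120211 and 50129704, with folds of 3.76 and 4.32 in replicate 1 and 3.83 and 4.20 in replicate 2. The fifth was on the distal long arm, at 175976035 to 175976267 in replicate 2, within THOC3-AS1, with a fold of 5.24. Replicates may be technical, since the labels do not say that they came from separate cultures.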

How the data were processed

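Per the submitters' processing notes, the build was GRCh38.p13 and the tools included MACS2 2.2.7.1, bedtools 2.30.0, Picard 2.27.4, SAMtools 1.6 and BWA, named with no roles. The sources used here do not give their settings or any control library used in peak calling. Each deposited list holds 1 library's peaks with pileup signal, −log10 p, −log10 q and fold enrichment (a ratio over the caller's background), as the authors' caller gave them. Numbering of the KAS peaks begins at 1951, and lower-numbered ones were not analysed.

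Summits were counted per stretch and step, with exact Poisson intervals, exact conditional intervals for ratios and Clopper-Pearson intervals for shares (95%), covering counting error only. Chromosome extent was the last gene or peak end (181472479 on chromosome 5), with runs of unknown bases included. Genes came from a RefSeq table of GRCh38.p14 and were placed by their midpoint, and a gene held a peak when they shared at least 1 base. That table gives no exons, and promoter windows were at hand for 790 of 904 protein-coding genes of the chromosome 5 arms. The 223 arm genes with a peak were checked with bedtools 2.31.1, which gave 223.

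Named were the 15 genes with most summits, the 10 with most per 100 kb among those with at least 3, the 10 peaks of highest fold, the widest 3, and up to 8 genes with a peak per list. Members, stretches and lists were chosen with earlier results of these data known. The genes of the deleted stretch with 2 summits, SNX24, EDIL3, GUSBP1, TPPP and TENT2 were named after their values were seen. Python 3.11.15, NumPy 2.4.6, pandas 2.3.3, SciPy 1.17.1 and matplotlib 3.10.9 were used, and the steps were tested on simulated data.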

Additional observations from a re-analysis of the deposited data

How the results depend on the processing

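The 62 alternatives included 16 for each of the ratios of the short arm and the distal long arm to the deleted stretch. No ratio fell to 1 or below: they ran from 4.91 to 12.1 for the short arm and from 4.34 to 13 for the distal long arm. Outside the counting interval of the ratios as reported (7.5 and 11.2) were 9.78 for the short arm by bases covered, 4.91 and 7.34 with the distal boundary 5 Mb further out, 7.34, 4.34 and 5.42 for the distal long arm at a pileup of at least 12, 15 and 20, 12.1 for the short arm at 20, and 5.64 for the distal long arm per protein-coding gene. The cause of these shifts was not tested. When the lower-fold 50% of peaks were dropped, 26.3% of short-arm genes and 20.2% of distal genes held a peak, since fewer peaks are counted. Steps of 1 or 10 Mb moved each stretch's median density by less than the SD between its 5 Mb steps. No arm peak reached the pileup ceiling of 200, so the settings without peaks at the ceiling could only return the medians as reported. The settings that left out a pulldown list or asked for more overlap could only return 0, since the overlap over all lists was 0. For the same reason, the setting without KAS peaks that overlap a pulldown peak could only return the ratios as reported. The settings by pileup, without chromosome ends and per gene were chosen after seeing the data. No paired analysis was possible because the KAS group has 1 library, which shares only 1 replicate number with the pulldowns. Read depth is unknown, because a peak list holds no library total.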
